A study of Mus musculus with 40 samples.

Results

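The genes described here encode AP-1, a transcription factor built from pairs of Fos-family and Jun-family proteins. The family has 7 members, Fos, Fosb, Fosl1, Fosl2, Jun, Junb and Jund, and each was taken by its gene symbol from the 32531 symbols listed for every library. AP-1 dimers join through leucine zippers and bind short DNA elements in promoters and enhancers. Fos and Fosb are immediate early genes, transcribed within minutes of a burst of neuronal activity, whereas Jund is made steadily in most cells. In the nucleus accumbens, a truncated and long-lived product of Fosb called delta-FosB is known to accumulate with repeated cocaine, and JunD is one of its usual partners.

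All libraries came from the accumbens nucleus of adult mice of the Drd1-TRAP line CP73, on a background of FVB/N-Swiss Webster crossed to C57BL/6 for at least 9 generations. This line makes an EGFP-tagged ribosomal protein, Rpl10a, driven by the D1 dopamine receptor gene, so that pulling down the tag recovers RNA being translated in the cells that carry it, mainly medium spiny neurons of the direct pathway. The mice had long-access intravenous self-administration of cocaine or of saline. Cocaine mice were labelled as an escalating or a nonescalating group, and all were taken 24 hours or about 1 month after self-administration. At 1 month there were 4 escalating, 11 nonescalating and 5 saline libraries. At 24 hours there were 5 escalating, 9 nonescalating and 6 saline libraries. Library 1595, nonescalating at 1 month, was set aside because its total was 5168 counts, so that 39 libraries remain with totals between 3772630 and 33932469 counts. The labels do not say that each library came from its own animal, so p-values measure the spread between libraries. Each time point has its own set of libraries in the labels, so time and library set cannot be told apart.

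The D1 neuron markers were present in all 39 libraries, at 261 to 2316 CPM summed over 6 genes. CPM are counts per gene scaled to a common library total after TMM normalization, which corrects totals for composition. The 5 markers of D2 medium spiny neurons summed to 403 to 1082 CPM, so RNA of that class was present too. Saline 24-hour libraries 1573 and 1574 stood apart. Library 1573 had the lowest D1 sum and the highest astrocyte sum, 3175 CPM over 7 genes against a median of 479 CPM over all libraries. In library 1574 the astrocyte sum was 2225 CPM, and its log2 CPM correlated least with the rest, at a median of 0.693. The astrocyte markers Gfap, Aldh1l1 and Gja1, the oligodendrocyte markers Mog, Mag and Cldn11 and all 7 microglial markers were at 0 in at least 1 library. For members and named genes of the saline 24-hour comparisons, values without libraries 1573 and 1574 are given for part of those that moved. In these bulk libraries, fewer tagged cells and less RNA per cell cannot be told apart.

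The promoters of 3 members, Fosb, Fos and Jun, and 1 alternatively spliced segment are shown. The promoter sequences are RefSeq entries of build GRCm38.p6, 250 bases before to 50 bases after the start site, read along the gene. An entry was matched for 6 of the 7 members, all except Fosl1. Capitals mark TGACG, the core of the cyclic AMP response element through which CREB acts, TATAAA, the TATA box, and TGACATCA, a variant of the AP-1 element.
Fosb, chr7:19309996-19310295, minus strand: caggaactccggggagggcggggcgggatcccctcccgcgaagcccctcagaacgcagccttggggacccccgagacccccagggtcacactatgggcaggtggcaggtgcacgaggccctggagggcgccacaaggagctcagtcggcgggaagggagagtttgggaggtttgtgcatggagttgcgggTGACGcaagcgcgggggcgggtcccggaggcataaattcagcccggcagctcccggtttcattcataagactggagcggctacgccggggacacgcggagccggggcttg
Fos, chr12:85473640-85473939, plus strand: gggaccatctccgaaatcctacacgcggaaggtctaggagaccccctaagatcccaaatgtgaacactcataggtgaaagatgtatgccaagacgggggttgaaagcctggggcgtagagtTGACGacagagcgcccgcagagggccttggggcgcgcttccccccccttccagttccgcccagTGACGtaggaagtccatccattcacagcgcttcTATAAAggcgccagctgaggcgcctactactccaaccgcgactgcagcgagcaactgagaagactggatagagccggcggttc
Jun, chr4:95052173-95052472, minus strand: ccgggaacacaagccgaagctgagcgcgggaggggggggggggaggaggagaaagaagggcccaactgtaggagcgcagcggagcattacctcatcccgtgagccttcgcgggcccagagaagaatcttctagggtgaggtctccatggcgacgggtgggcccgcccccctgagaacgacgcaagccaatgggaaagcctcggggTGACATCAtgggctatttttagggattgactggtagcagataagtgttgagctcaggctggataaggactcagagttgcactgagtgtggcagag
Both strands were searched, and positions are counted from the start site. The Fosb window held TGACG once, at -60, where the Fos window held it at -129 and -66 and had TATAAA at -33. The Jun window held TGACATCA at -45 and no TGACG. Over all 32851 promoter windows of this length, TGACG was found in 20.8%, TATAAA in 13.6% and TGACATCA in 3.62%. The other motifs searched were the full element TGACGTCA, which contains TGACG and occurs in 1.79% of windows, and the AP-1 element TGANTCA, in 7.81%. Neither was in the windows of Fosb, Fos or Jun. Of the matched windows not shown, that of Junb held TGACG at -106 and TATAAA at 1. Those of Fosl2 and Jund held none of the motifs searched, but neither covers the gene start given in GENCODE vM21. The Jund window, chr8:70697489-70697788, ends before that start at 70698949. The Fosl2 window, chr5:32136222-32136521, begins after that start at 32135801. Motifs at those GENCODE starts were not searched. These letters are a description of the windows and carry no measurement of binding.

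Delta-FosB arises when a segment inside the last exon of Fosb is spliced out, which shifts the reading frame and ends the protein early. In GENCODE vM21 (build GRCm38) this segment is 140 bases long, at chr7:19305007-19305146 on the minus strand, inside the coding sequence. It is shown in capitals with 10 bases on each side.
Fosb segment, chr7:19304997-19305156: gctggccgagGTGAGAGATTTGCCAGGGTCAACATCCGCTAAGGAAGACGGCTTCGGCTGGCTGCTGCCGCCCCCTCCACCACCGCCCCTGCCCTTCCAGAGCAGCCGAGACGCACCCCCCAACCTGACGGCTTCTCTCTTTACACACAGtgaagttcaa
The segment makes up 3.70% of the 3782 bases of the long transcript. The deposited values are 1 count per gene, so full-length Fosb and delta-FosB are added together in every value below.

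Levels of different members can be compared only per kilobase of exon, and on that scale Jund was the most abundant. Jund made up 35.6% ± 10.98 of the family's summed CPM per kilobase (SD, n = 39 libraries) and was the highest member in 29 of 39 libraries. Fosl2, which encodes Fra-2, followed with 27.1% ± 13.04, then Fosb with 14.8% ± 7.40 and Junb with 11.9% ± 5.69. Jun gave 7.52% ± 4.54 and Fos 3.02% ± 4.47. Fosb exceeded Fos per kilobase in 38 of 39 libraries, and Jund exceeded Jun in 38 of 39. Fosl1, which encodes Fra-1, had no count in 34 of 39 libraries and at most 6 counts in the rest. A count of 0 allows a Fosl1 level of up to 0.0880 to 0.783 CPM, taking 3 counts per library as the limit. Fosl1 therefore failed the expression filter and was not tested, which leaves 6 tested members.

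**Figure D1:**
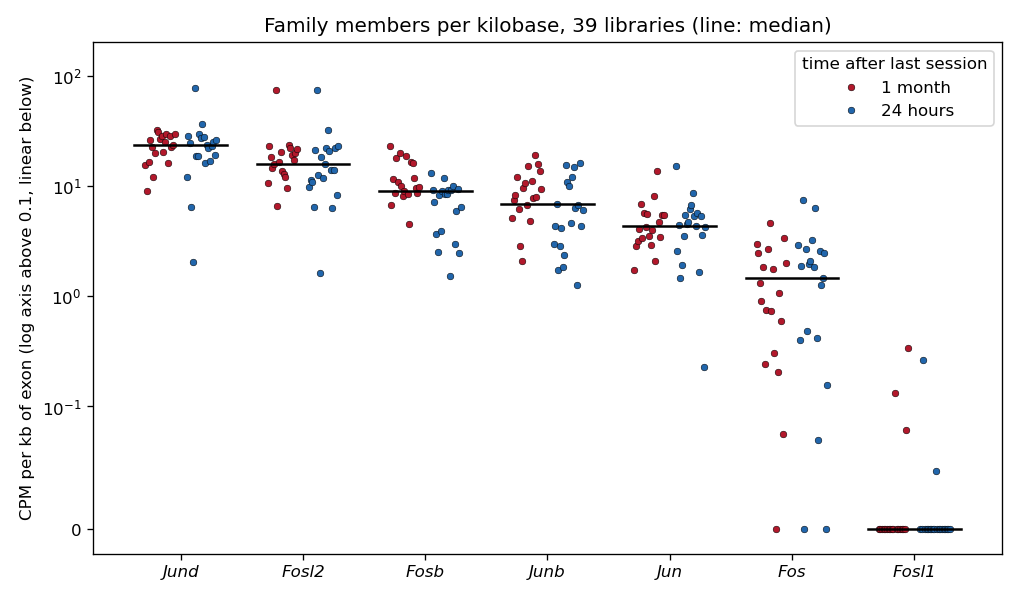
CPM per kilobase of exon for each family member in 39 libraries, on a log axis that turns linear below 0.1. Red points are 1-month libraries, blue points are 24-hour libraries and lines are medians. Jund lies highest, Fos is the lowest of the 6 tested members, and Fosl1 is at 0 in 34 libraries.

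Several of these genes share sequence with a neighbour, and the strand setting of the counting is not given in the sources used here. Jund (chr8:70698949-70700616, plus strand) shares 877 exonic bases, 52.6% of its exons, with Gm11175 on the opposite strand. The Jun gene (chr4:95049034-95052222, minus strand) shares 232 bases with Junos, and Junb (chr8:84974484-84978718, minus strand) shares 173 with Prdx2, which was at 35.9 to 164 CPM. Fosl1 shares 57.2% of its exonic bases with Ccdc85b. The values of these members are uncertain to that extent. For Fos (chr12:85473890-85477273, plus strand), Fosb (chr7:19302696-19310051, minus strand) and Fosl2 (chr5:32135801-32157842, plus strand), bases shared with neighbours were not computed.

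Fosb had the largest log2 difference of the family between time points when averaged over the 3 groups. In saline libraries alone Junb had the largest, at 1.02, with all libraries kept. Without libraries 1573 and 1574 Jund was at -0.997 there, and Junb averaged 8.23 CPM at 24 hours in place of 6.87. The place of Junb is therefore given only for all libraries. At 1 month Fosb was at 44.8, 36.3, 32.6 and 37.0 CPM in escalating libraries. The nonescalating 1-month libraries ran from 17.02 to 75.1 CPM with a median of 39.5. Saline 1-month libraries had 86.3, 25.6, 43.4, 32.8 and 68.3 CPM. The 3 groups overlapped, and the escalating libraries lay close together inside the range of the others. At 24 hours Fosb was at 11.2, 22.4, 35.8, 9.33 and 24.5 CPM in escalating libraries. It ran from 5.78 to 44.5 CPM with a median of 34.3 in nonescalating libraries, and from 9.56 to 49.3 CPM with a median of 28.9 in saline libraries. The 24-hour groups overlapped too. Over the 3 groups, 6 of 19 libraries at 1 month lay above every 24-hour library, and 6 of 20 at 24 hours lay below every 1-month library.

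Fos, the standard marker of recent neuronal activity, was low and uneven. In escalating 1-month libraries it had 1.25, 0.163, 7.07 and 4.25 CPM. Nonescalating 1-month libraries ran from 0 to 9.81 CPM with a median of 1.56, and saline 1-month libraries had 6.31, 5.25, 2.79, 1.90 and 3.87 CPM. At 24 hours the escalating libraries had 2.64, 3.06, 5.18, 0 and 0.329 CPM. The range at 24 hours was 0.154 to 13.3 CPM with a median of 4.17 in nonescalating libraries and 0 to 15.7 CPM with a median of 4.80 in saline libraries. The highest value, 15.7 CPM from 60 counts, was that of library 1573. No Fos count was found in 3 libraries, which allows up to 0.311 to 0.486 CPM. The biological coefficient of variation, which is the spread between libraries beyond counting error relative to the mean, was 1.01 for Fos at 1 month and 1.21 at 24 hours, against medians of 0.490 and 0.752 over all genes tested.

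**Figure D2:**
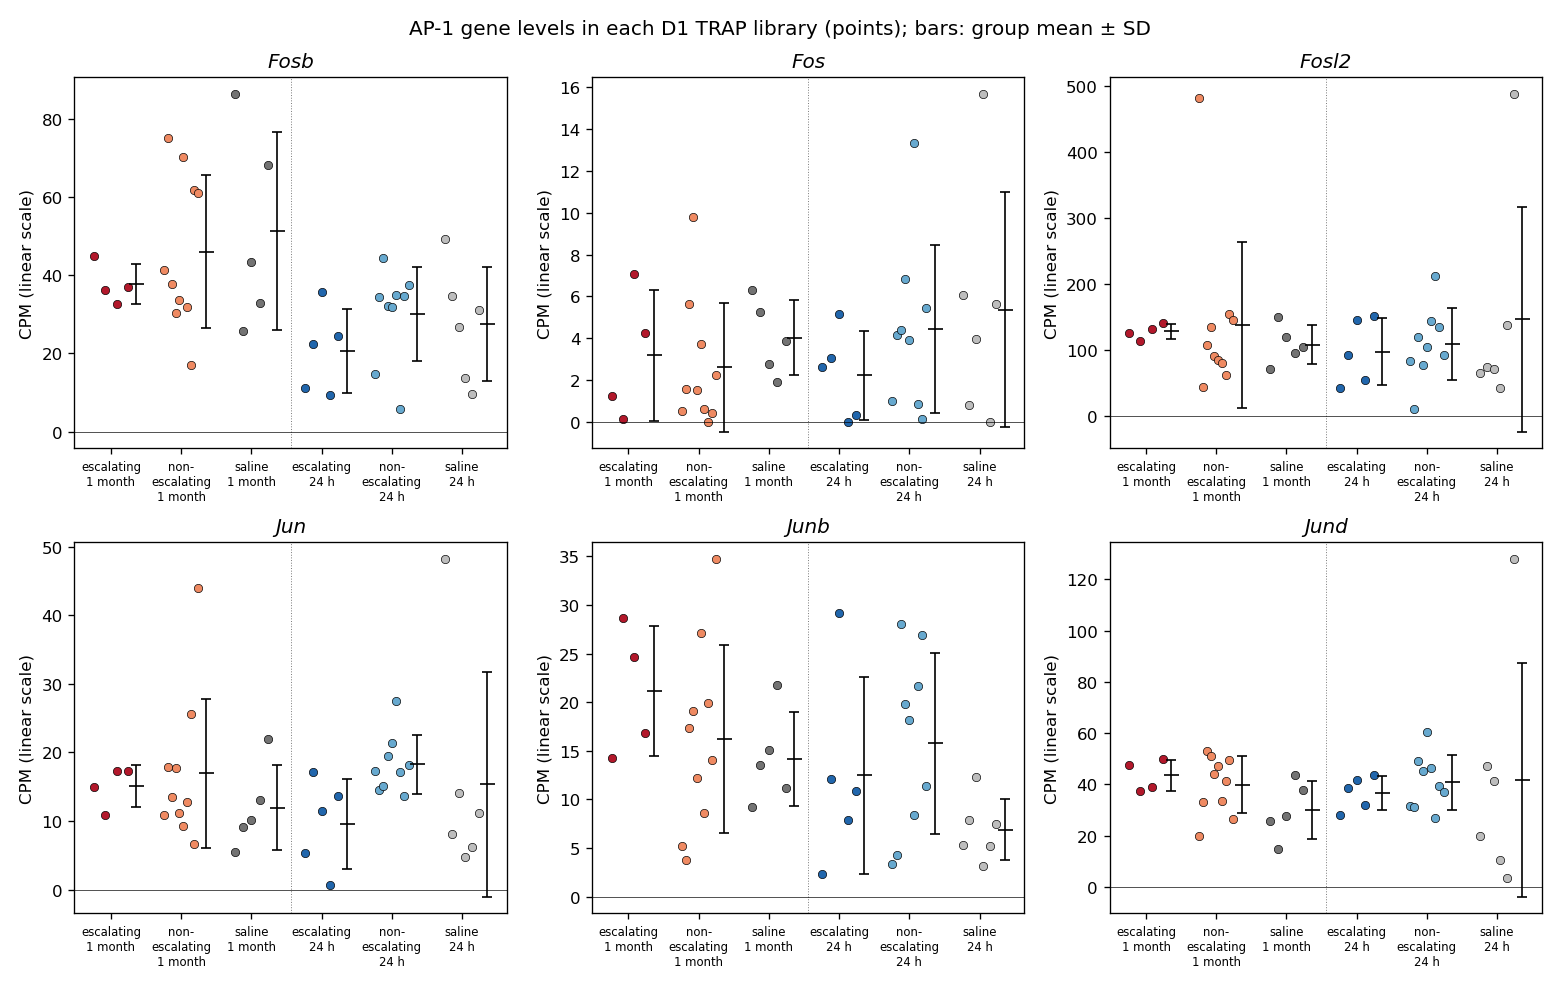
CPM of 6 members in each library on linear axes, with 1-month groups left of 24-hour groups and escalating, nonescalating and saline in that order. Points are libraries and bars are group means ± SD, some of which extend below 0. Group ranges overlap in every panel, and single high libraries stand out for Fosl2, Jun and Jund.

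Fosl2 had the highest mean CPM of the family and also the longest transcript, 6537 bases. It was at 125, 113, 131 and 140 CPM in escalating, 43.4 to 481 CPM (median 98.3) in nonescalating and 69.8, 150, 119, 94.6 and 103 CPM in saline libraries at 1 month. At 24 hours it was at 41.0, 91.1, 145, 53.9 and 151 CPM in escalating, 10.5 to 211 CPM (median 103) in nonescalating and 42.3 to 487 CPM (median 71.8) in saline libraries. The values of 481 and 487 CPM belong to 1 library each, 1596 and 1575.

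Among the Jun genes, Jun itself was at 14.99, 10.9, 17.3 and 17.3 CPM in escalating, 6.71 to 44.0 CPM (median 13.1) in nonescalating and 5.45, 9.14, 10.1, 13.05 and 21.9 CPM in saline libraries at 1 month. At 24 hours Jun was at 5.29, 17.1, 11.4, 0.726 and 13.6 CPM in escalating libraries. It ran from 13.7 to 27.6 CPM (median 17.4) in nonescalating libraries and from 4.70 to 48.1 CPM (median 9.63) in saline libraries. In the escalating group at 24 hours, 4 of 5 libraries lay below every nonescalating library, and 6 of 9 nonescalating libraries lay above every escalating one.

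Junb, whose product can oppose c-Jun on some promoters, was at 14.3, 28.6, 24.7 and 16.8 CPM in escalating, 3.74 to 34.7 CPM (median 15.7) in nonescalating and 9.20, 13.5, 15.1, 21.8 and 11.2 CPM in saline libraries at 1 month. At 24 hours Junb was at 2.30, 12.1, 29.2, 7.88 and 10.8 CPM in escalating, 3.31 to 28.0 CPM (median 18.2) in nonescalating and 3.13 to 12.3 CPM (median 6.40) in saline libraries. The saline 24-hour libraries were the lowest set, and 5 of 9 nonescalating libraries lay above all of them.

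Jund was at 47.8, 37.4, 39.1 and 49.7 CPM in escalating, 20.04 to 53.1 CPM (median 42.7) in nonescalating and 25.7, 14.98, 27.7, 43.7 and 37.9 CPM in saline libraries at 1 month. At 24 hours Jund was at 28.0, 38.5, 41.6, 32.0 and 43.7 CPM in escalating, 26.9 to 60.5 CPM (median 39.6) in nonescalating and 3.40 to 128 CPM (median 30.6) in saline libraries. The saline 24-hour group held both the lowest and the highest Jund value of the study. The lowest was in library 1574 and the highest in library 1575.

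Ordered by group mean, the levels of each member formed an unbroken series. For Fosb the order was saline at 1 month (51.3 ± 25.4 CPM, SD, n = 5), nonescalating at 1 month (46.0 ± 19.5, n = 10), escalating at 1 month (37.7 ± 5.13, n = 4), nonescalating at 24 hours (30.1 ± 12.04, n = 9), saline at 24 hours (27.5 ± 14.5, n = 6) and escalating at 24 hours (20.6 ± 10.8, n = 5). The 3 highest means were those at 1 month. Junb was highest in escalating libraries at 1 month (21.1 ± 6.68 CPM, n = 4) and lowest in saline libraries at 24 hours (6.87 ± 3.15, n = 6). For all 7 members, no 2 neighbouring means differed by more than both of their SDs. In all 9 pairwise comparisons the ranges of the groups overlapped. For Fosl1 the ranges had to overlap, since every group held libraries without any Fosl1 count. How often other genes behave in this way was not tested, so neither result is read as a trait of the family.

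The first question of the design is whether cocaine self-administration, with or without escalation, changed these genes 24 hours later. No member passed the test there. Comparing escalating with saline libraries, 0 of 6 tested members passed an adjusted p of 0.05 in edgeR's quasi-likelihood test, where 0% of 14137 genes did, with 729 genes (5.16%) under an unadjusted p of 0.05. DESeq2 called 8 genes and limma voom 0, and no member was called by either. Lower levels in escalating libraries were found for 5 of 6 members, with a median log2 fold change of -0.56 against -0.06 over all genes. Junb was the exception at 0.82 ± 0.65 (SE, adjusted p = 0.992, edgeR). The 95% interval of Fos, -3.73 to 1.15, was the widest. Without libraries 1573 and 1574, saline libraries averaged 35.5 ± 9.80 CPM of Fosb (SD, n = 4), and its log2 fold change was -0.81 in place of -0.46 (adjusted p = 0.904). Without library 1575, Fosl2 and Jund turned to 0.27 and 0.55 in place of -0.65 and -0.23. Leaving out 1573 and 1574 raised their saline means, to 174 ± 209 CPM of Fosl2 and 59.0 ± 47.3 CPM of Jund (SD, n = 4). Over 29 alternatives Fosl2 lay between -0.90 and 0.27 and Jund between -0.73 and 0.55.

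Comparing nonescalating with saline libraries at 24 hours, 0 of 6 members passed, where edgeR called 0% of 14137 genes and 1409 (9.97%) had an unadjusted p under 0.05. DESeq2 called 164 genes and voom 0, none of them a member. Junb had the largest difference, at 15.8 ± 9.29 CPM in nonescalating and 6.87 ± 3.15 CPM in saline libraries (SD, n = 9 and 6). Its log2 fold change was 1.18 ± 0.59 (SE, 95% interval -0.03 to 2.40) with an adjusted p of 0.507 in edgeR. Over the alternatives the unadjusted p of Junb in this comparison, by edgeR, DESeq2 or voom, lay between 0.0226 and 0.165, and without libraries 1573 and 1574 the log2 fold change was 0.94. Fosb was at 0.11 ± 0.44 and Jund at -0.05 ± 0.46. Without libraries 1573 and 1574 Fosb was at -0.24, Jun at -0.16 in place of 0.23, and Jund at -0.55. Without library 1575, Jund was at 0.72 and Fosl2 at 0.46 in place of -0.45. Over 29 alternatives Fosl2 lay between -0.88 and 0.46. Without library 1570, Jun was at 1.02 in place of 0.23. Each tested member except Junb changed sign under at least 1 of 29 alternatives in this comparison, and Junb was positive under all 29.

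Between escalating and nonescalating libraries at 24 hours, all 6 tested members had lower levels in the escalating group, and 0 of 6 passed. The background was 0% of 14137 genes called by edgeR and 446 (3.15%) with an unadjusted p under 0.05, with 3 genes called by DESeq2 and 0 by voom, none a member. The median log2 fold change was -0.47, against -0.03 over all genes. Jun differed most by p, at 9.62 ± 6.57 CPM in escalating and 18.3 ± 4.26 CPM in nonescalating libraries (SD, n = 5 and 9). That is a log2 fold change of -0.96 ± 0.61 (SE, 95% interval -2.21 to 0.29, adjusted p = 1.00 in edgeR). By voom the value was -1.46 with an adjusted p of 1.00. Fosb was at -0.57 ± 0.47 and Fos at -0.99 ± 1.11. Escalating library 1588 had both the lowest Jun value and a Fos value of 0. All 6 members stayed negative in 28 of 29 alternatives, the exception being Fosl2 at 0.0090 without libraries 1573, 1574 and 1582. Markers of other cells moved in both directions in this comparison. All 7 vascular markers were higher in escalating libraries (median log2 fold change 1.43, 4 at an unadjusted p under 0.05), with sums of 137 to 1660 CPM in escalating and 55.3 to 408 CPM in nonescalating libraries, and all 3 oligodendrocyte precursor markers were higher (median 1.01, 0 at that p). Of 7 astrocyte markers 5 were lower (median -0.30, 1 at that p), with sums of 241 to 475 CPM in escalating and 298 to 1291 CPM in nonescalating libraries. All 5 glutamatergic projection neuron markers were lower (median -2.55, 1 at that p). The part of these cells in the lower levels was not tested.

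At 1 month the question is whether the groups still differed after withdrawal. Comparing escalating with saline libraries, 0 of 6 members passed, where edgeR called 0% of 14181 genes, 618 (4.36%) had an unadjusted p under 0.05, and DESeq2 and voom called 0. Higher levels in escalating libraries were found for 4 of 6 members, where 49.0% of all genes were higher. Jund came closest, at 43.5 ± 6.14 CPM in escalating and 30.0 ± 11.2 CPM in saline libraries (SD, n = 4 and 5), a log2 fold change of 0.54 ± 0.30 (SE, 95% interval -0.08 to 1.16, adjusted p = 1.00 in edgeR). Fosb had the opposite sign, at -0.44 ± 0.37. Library totals of these groups did not overlap, at 5750282 to 6958259 counts in escalating and 10484101 to 33932469 counts in saline libraries. The part of depth in these differences was not tested.

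Nonescalating libraries were set against the same saline libraries, so this comparison is not independent of the last. Of 6 members 0 passed, where edgeR called 0% of 14181 genes, 642 (4.53%) had an unadjusted p under 0.05, DESeq2 called 8 and voom 0. Jund was at 0.42 ± 0.25 (SE, adjusted p = 0.986 in edgeR), Jun at 0.51 ± 0.39 and Fosb at -0.15 ± 0.30. Escalating against nonescalating libraries gave 0 of 6 members, where edgeR called 0% of 14181 genes, 328 (2.31%) had an unadjusted p under 0.05, and DESeq2 and voom called 0. The 6 log2 fold changes lay between -0.29 for Fosb and 0.39 for Junb.

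**Figure D3:**
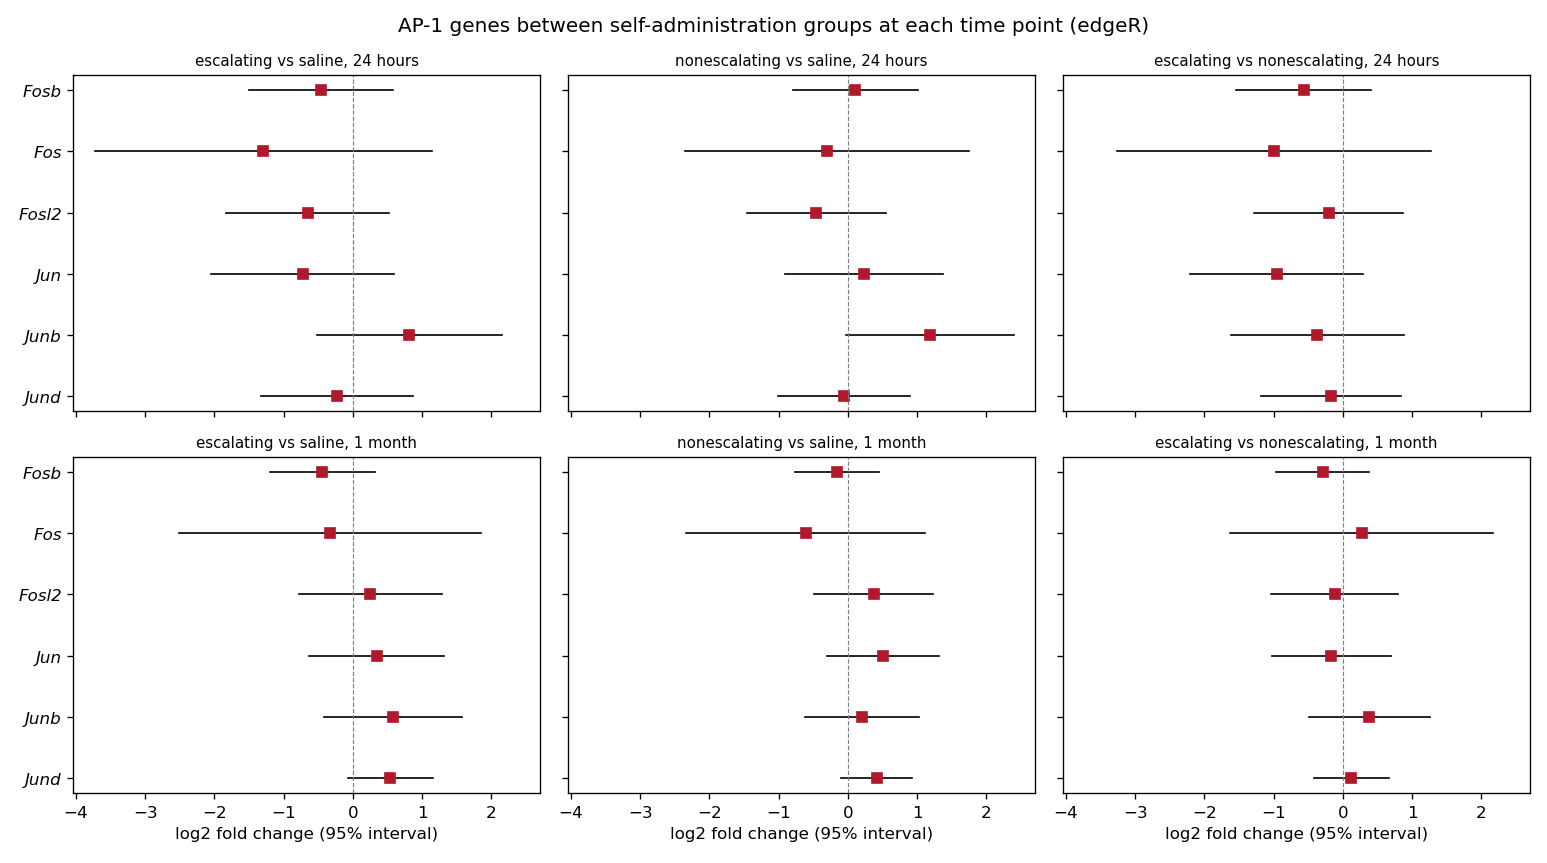
Log2 fold changes of 6 members with 95% intervals from edgeR for the 3 group comparisons at 24 hours (top) and at 1 month (bottom). Every interval includes 0. Intervals are narrower at 1 month, and those of Fos are the widest in each panel.

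The lowest p-value in the family was that of time in Fosb. In escalating libraries Fosb averaged 37.7 ± 5.13 CPM at 1 month and 20.6 ± 10.8 CPM at 24 hours, a log2 fold change of 0.89 ± 0.47 (SE, adjusted p = 1.00 in edgeR). In nonescalating libraries it averaged 46.0 ± 19.5 CPM at 1 month and 30.1 ± 12.04 CPM at 24 hours, or 0.61 ± 0.32 (adjusted p = 1.00). In saline libraries it averaged 51.3 ± 25.4 CPM at 1 month and 27.5 ± 14.5 CPM at 24 hours, or 0.89 ± 0.42 (unadjusted p = 0.0401, adjusted p = 0.356 in edgeR). The direction was the same in cocaine and saline mice. In each of these 3 comparisons 0 of 6 members and 0% of 15579 genes passed in edgeR and 0 in voom, with 1.72%, 4.64% and 13% of genes under an unadjusted p of 0.05 in escalating, nonescalating and saline libraries. DESeq2 called 6, 3 and 583 genes in the same order, none a member.

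A comparison of 1 month with 24 hours averaged over the 3 groups was added after these values were seen. Fosb averaged 45.7 ± 19.01 CPM at 1 month and 27.0 ± 12.5 CPM at 24 hours (SD, n = 19 and 20 libraries). The fitted log2 fold change was 0.80 ± 0.23 (SE, 95% interval 0.32 to 1.27), with an unadjusted p of 0.00141 and an adjusted p of 0.216 in edgeR. Fosb ranked 102 of 15579 genes by p, 1364 of which (8.76%) had an unadjusted p under 0.05, 279 of them (1.79%) higher at 1 month. No gene passed the adjusted threshold in edgeR or voom, and DESeq2 called 113 genes without Fosb (adjusted p = 0.0680). Over 48 alternatives the log2 fold change of Fosb lay between 0.63 and 0.90 and its adjusted p between 0.0680 and 0.803. Without libraries 1573 and 1574, which had Fosb at 13.8 and 9.56 CPM, it was 0.67 (adjusted p = 0.803). In saline libraries alone, leaving out 1573 and 1574 gave 0.52 in place of 0.89. The summed D1 markers were at 1480 to 2316 CPM at 1 month and 261 to 2054 CPM at 24 hours. In the averaged comparison 5 of 6 D1 markers had positive log2 fold changes (median 0.17). So did 6 of 6 markers of all medium spiny neurons (0.11), 3 of 5 D2 (0.044) and 3 of 5 microglial markers (0.24). Markers of some other cells were lower at 1 month in this comparison, with 6 of 7 vascular (median log2 fold change -1.04), 3 of 7 oligodendrocyte (-0.87), 2 of 3 oligodendrocyte precursor (-1.81) and 2 of 7 astrocyte markers (-0.25) lower at an unadjusted p under 0.05. Once 1573 and 1574 were left out these were 3 of 7 vascular (-0.63), 0 oligodendrocyte (0.090), 2 of 3 oligodendrocyte precursor (-1.56) and 0 astrocyte markers (0.15). Beyond leaving out those libraries, the part of these cells in the Fosb difference was not tested.

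The other members showed no common course. After Fosb, the lowest p in the averaged comparison was that of Junb, at 16.7 ± 8.10 CPM at 1 month and 12.3 ± 8.68 CPM at 24 hours, a log2 fold change of 0.61 ± 0.31 (adjusted p = 0.573 in edgeR). Fos, Fosl2, Jun and Jund lay between -0.22 and 0.11, with 95% intervals that reached from -1.43 to 0.99 for Fos and from -0.57 to 0.40 for Jund. In escalating libraries all 6 members were higher at 1 month, with a median of 0.60 against -0.05 over all genes. All 6 were positive in 47 of 48 alternatives. The escalating 24-hour libraries used here are also those found lower than nonescalating ones at 24 hours, so these patterns are not independent. In saline libraries 2 of 6 were higher, Fosb and Junb. Jund in saline libraries depended on single libraries, with -0.49 over all, -0.997 without 1573 and 1574, and 0.28 without 1575.

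**Figure D4:**
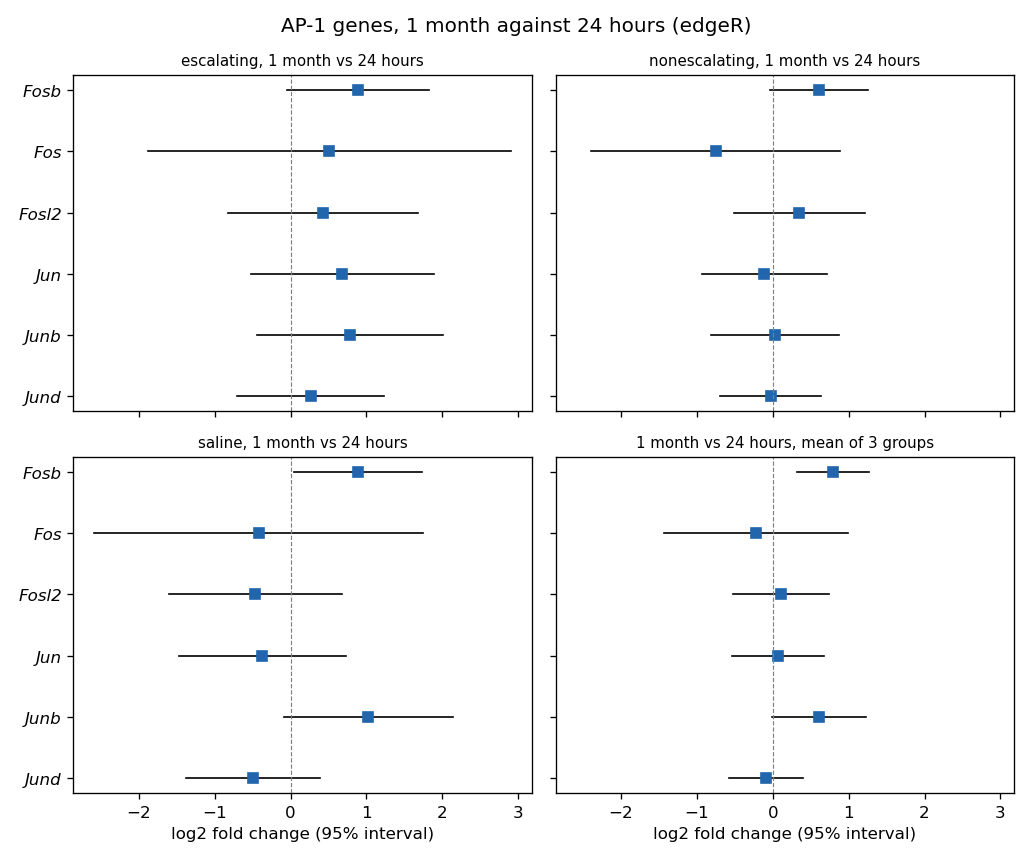
Log2 fold changes of 6 members at 1 month against 24 hours, with 95% intervals from edgeR, in escalating, nonescalating and saline libraries and averaged over the 3 groups. Fosb is positive in all 4 panels, and its interval excludes 0 in the saline and averaged panels, where its adjusted p was 0.356 and 0.216.

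Whether a group difference itself changed between the time points was tested by an interaction term over 39 libraries. For escalating against saline, for nonescalating against saline and for escalating against nonescalating, 0 of 6 members passed and edgeR called 0% of 15579 genes, with 4.94%, 9.8% and 2.3% under an unadjusted p of 0.05. DESeq2 called 10, 109 and 6 genes in that order and voom 0, none a member. The interaction for Fosb was 0.0051 ± 0.62, -0.27 ± 0.53 and 0.28 ± 0.57 on the log2 scale (SE). Junb had -0.99 ± 0.69 for nonescalating against saline (adjusted p = 0.689, edgeR), and Jun had 1.05 ± 0.81 for escalating against saline (adjusted p = 0.999). The change with time of escalating against nonescalating was positive for all 6 members, with a median of 0.52, where 47.4% of all genes were positive with a median of -0.04. This count held in 40 of 48 alternatives and was 5 in the rest.

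Members varied together only weakly from library to library. Of the 15 pairs among 6 members, 13 had a positive correlation of log2 CPM over 39 libraries, and none had an adjusted p under 0.05 over the 15 pairs by Pearson's r or Spearman's rho. Junb and Jund had the largest r, 0.39 (rho 0.40, permutation p = 0.0119 and 0.0124, adjusted p = 0.117 and 0.126), and r was 0.32 without the 2 libraries farthest from the median of Junb. After group means were subtracted, Fosb and Jund had the largest r, 0.42 (rho 0.33, permutation p = 0.0144 and 0.0720, adjusted p = 0.108 and 0.339), and r was 0.27 without the 2 farthest libraries. Fos and Fosb had r = 0.33 (rho 0.17, permutation p = 0.0427 and 0.291, adjusted p = 0.128 and 0.507), and r was 0.12 without the 2 farthest.

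Over the same 39 libraries, the genes most like each member in log2 CPM were found by Pearson's r. Jund followed Mta3 (0.85), Rbbp5 (0.85) and H2-DMa (0.83), and Junb followed Ing4 (0.83), Itm2c (0.78) and Tubb3 (0.76). Jun followed the D3 dopamine receptor gene Drd3 (0.76), Ankrd42 (0.69) and Tmem63b (0.69). Fosb followed Arl15 (0.74), Mtmr4 (0.72) and Slc35d3 (0.72), and Fosl2 followed Rab1b (0.72), Get4 (0.67) and Itpr1 (0.67). The weakest likeness was that of Fos, with Lmnb2 (0.65), Phactr3 (0.64) and Nrip2 (0.63). After group means were subtracted, the closest gene was H2-DMa for Jund (0.85), Ing4 for Junb (0.79), Drd3 for Jun (0.73), Mtmr4 for Fosb (0.76), Rab1b for Fosl2 (0.72) and Kat2b for Fos (0.66). These correlations are descriptions, since libraries share depth and composition.

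The other genes of the pathway gave no call either. Lists were drawn up of 13 bZIP partners that can pair with AP-1 proteins, 25 kinases and factors upstream of it, 4 MAP kinase phosphatases, 13 other immediate early genes and 8 genes described as delta-FosB targets in striatum. Of these 63 genes, 59 to 61 were tested, depending on the comparison, and 0 passed an adjusted p of 0.05 in edgeR in any of them. In escalating against saline libraries at 24 hours, 0 of 60 tested genes were higher and 7 lower at an unadjusted p under 0.05 (0% and 11.7%), against 1.41% and 3.74% of all genes. In nonescalating against saline libraries at 24 hours, 4 were higher and 8 lower (6.67% and 13.3%), against 2.25% and 7.72% of all genes. Markers of other cells were lower in the same comparison, with 4 of 7 oligodendrocyte (median log2 fold change -1.93), 5 of 7 vascular (-1.69) and 4 of 7 astrocyte markers (-0.84) at an unadjusted p under 0.05. In escalating against saline libraries these were 5 of 7 oligodendrocyte (-2.23), 0 of 7 vascular (-0.52) and 4 of 7 astrocyte markers (-1.99). Without libraries 1573 and 1574, 0 of 61 pathway genes were higher and 1 lower in escalating against saline libraries. These were 0% and 1.64%, against 3.4% and 2.43% of all genes. In nonescalating against saline libraries 1 was higher and 1 lower (1.64% each), against 2.65% and 2.59% of all genes. In the escalating comparison astrocyte markers then had 0 higher and 1 lower (median -0.12). Oligodendrocyte markers had 0 higher and 1 lower there (0.36), and vascular markers 2 higher and 0 lower (1.07). In the nonescalating comparison astrocyte markers had 1 higher and 0 lower (0.17). Oligodendrocyte markers had 2 higher and 1 lower there (0.81), and vascular markers 0 higher and 0 lower (-0.40). With 1573 and 1574 kept, 1 pathway gene had an unadjusted p under 0.05 between escalating and nonescalating libraries at 24 hours. It was Nfkb1, a subunit of NF-kappaB, at 1.46 ± 0.68 (SE, adjusted p = 1.00, edgeR).

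The differences of Npas4, Atf7, Btg2 and Pdyn from the saline 24-hour group were smaller without libraries 1573 and 1574. Npas4, a neuron-specific activity-dependent factor, averaged 16.8 ± 17.2 CPM in nonescalating and 2.96 ± 3.05 CPM in saline libraries at 24 hours (SD, n = 9 and 6), a log2 fold change of 2.48 ± 0.95 (SE, adjusted p = 0.347, edgeR) and of 2.03 without those libraries. Atf7, which encodes a bZIP partner of Jun proteins, averaged 12.04 ± 6.09 CPM in nonescalating and 69.6 ± 123 CPM in saline libraries, a log2 fold change of -2.57 ± 0.60 (SE, adjusted p = 0.195, edgeR). The saline values of Atf7 had a median of 21.4 CPM and reached 321 CPM in 1 library, and without 1573 and 1574 they averaged 21.8 ± 5.46 CPM (n = 4) and the log2 fold change was -0.86. Btg2, an antiproliferative immediate early gene, was at -2.35 ± 0.70 in the same comparison and at -2.02 ± 0.85 in escalating against saline libraries. Without 1573 and 1574 Btg2 was at -0.19 in nonescalating and 0.15 in escalating against saline libraries. The dynorphin precursor gene Pdyn averaged 440 ± 86.7 CPM in nonescalating and 274 ± 151 CPM in saline libraries, a log2 fold change of 0.68 ± 0.29 (SE, adjusted p = 0.416, edgeR). Pdyn is also on the list of D1 markers, and its lowest saline value was 49.0 CPM. Without 1573 and 1574 Pdyn averaged 365 ± 57.4 CPM in saline libraries (n = 4), and the log2 fold change was 0.27.

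At 1 month, 2 of 59 pathway genes were higher and 2 lower in escalating against saline libraries at an unadjusted p under 0.05. These were 3.39% each. The lower ones were Atf2 at -0.49 ± 0.18 and Egr3 at -0.41 ± 0.20 (SE). In nonescalating against saline libraries 0 were higher and 2 lower (0% and 3.39%), against 4.53% of all genes in either direction. Those lower were Mapk10 at -0.26 ± 0.11 and Btg2 at -1.10 ± 0.52. Of 4 phosphatases 1 had such a p in escalating against saline libraries, where 4.36% of 14181 genes did. All 4 had positive log2 fold changes, as did 49.0% of all genes and all 7 vascular markers (median 0.81, 0 at that p). Dusp6, which inactivates ERK, averaged 21.5 ± 5.002 CPM in escalating and 10.1 ± 5.38 CPM in saline libraries (SD, n = 4 and 5), a log2 fold change of 1.10 ± 0.52 (SE, adjusted p = 1.00, edgeR). Dusp4 averaged 14.9 ± 7.46 CPM in escalating and 4.27 ± 3.05 CPM in nonescalating libraries (SD, n = 4 and 10), a log2 fold change of 1.81 ± 0.70 (SE, adjusted p = 0.999, edgeR). Pdyn was at 0.32 ± 0.15 in escalating against saline libraries and at 0.27 ± 0.13 in escalating against nonescalating libraries. In 1 month against 24 hours averaged over the 3 groups, 1 of 61 genes was higher, Pdyn at 0.41 ± 0.15, and 5 were lower at an unadjusted p under 0.05 (1.64% and 8.2%), against 1.79% and 6.96% of all genes. The lowest p among them was that of Elk4, a ternary complex factor that drives Fos with Srf, at -0.95 ± 0.27 (SE, adjusted p = 0.205, edgeR) and -0.58 without libraries 1573 and 1574. Without them 1 of 61 genes was higher and 4 were lower (1.64% and 6.56%), against 1.75% and 3.82% of all genes, and Pdyn was at 0.27.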

How the data were processed

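Polysomal RNA pulled down from Drd1-TRAP accumbens was sequenced as 40 libraries, and the authors deposited 1 table of raw gene counts per library, made with STAR 2.0.0e on mm10 and HTSeq per the submitters' processing notes. For HTSeq, the version, gene annotation and strandedness were not given in the sources used here. The 6 lines that name no gene were left out. Reads assigned to no feature made up 18.7% to 70.3%, and the counts of named genes were 3772630 to 33932469 per library. Floors of 3 counts cover counting error only, and intervals of fold changes include the spread between libraries.

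CPM were computed on TMM-scaled library totals, and log2 CPM used a prior count of 2. Differences were tested with edgeR 4.0.16 (R 4.3.3; filterByExpr with a minimum count of 10, TMM, robust quasi-likelihood F test, Benjamini-Hochberg over all genes, threshold 0.05). Libraries of 1 time point were fitted together within time, and all 39 for time and interactions. Alternatives were DESeq2 1.42.0, limma voom 3.58.1, other scaling and filters, a replicate block and left-out libraries. Permutation tests drew 100000 resamples. Of the tests, only edgeR for nonescalating against saline libraries at each time point was run on simulated counts. The share of changed genes called was checked only at a spread below that of the members. Gene models are GENCODE vM21 (GRCm38) with basic protein-coding transcripts, and promoters are RefSeq. The members and lists were chosen with earlier results of these data known. The rule for named genes took all 7 members, at most 2 genes of each pathway list per comparison by smallest p, and the 3 genes most like each tested member.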

Additional observations from a re-analysis of the deposited data

Results flagged for a closer look

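In 40 sets of values, 1 member in 1 group of at least 4 libraries, 8 had a single library whose distance from its nearest neighbour was a large share of the range. Chance flags about 1 in 20 such sets where values are roughly normal, which was not shown for these CPM, so 8 of 40 is not read against that rate. In library 1596, nonescalating at 1 month, Fosl2 was at 481 CPM, where the next of 10 libraries had 153 CPM. In library 1575, saline at 24 hours, Fosl2 was at 487 CPM where the next of 6 had 137 CPM, and Jund was at 128 CPM where the next had 47.2 CPM. Both Fosl2 values rest on high counts, 6525 and 5598.

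Jun was at 44.0 CPM in library 1605, nonescalating at 1 month, from 256 counts, where the next value was 25.6 CPM. It was at 48.1 CPM in library 1570, saline at 24 hours, from 443 counts, where the next was 14.1 CPM. The 3 remaining sets were those of Fosl1, where 1 library of the group had any count, so that the distance was the whole range by construction. They were 0.249 CPM in library 1601 from 2 counts, 0.0888 CPM in library 1580 from 1 count and 0.494 CPM in library 1572 from 6 counts.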

How the results depend on the processing

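No alternative called any of the 6 tested members, and the lowest adjusted p of a member was 0.0680, that of Fosb by DESeq2 in the averaged time comparison. Counts of all genes called were 0 in edgeR as reported, and differed by tool, by the libraries fitted together and by left-out libraries. DESeq2 called 8 genes in escalating against saline, 164 in nonescalating against saline and 3 in escalating against nonescalating libraries at 24 hours, 8 in nonescalating against saline libraries at 1 month, 6, 3 and 583 with time in escalating, nonescalating and saline libraries, 10, 109 and 6 in the interactions of escalating against saline, nonescalating against saline and escalating against nonescalating, and 113 in the averaged time comparison. Fitting all 39 libraries together called 129 genes in nonescalating against saline libraries at 24 hours. In saline libraries over time, 5 were called without 1575 and 1596, and 0 to 99 with 1 library left out (31, 60 and 99 without 1570, 1571 and 1572). By DESeq2's size factors the median of all genes in that comparison was -0.16 in place of -0.06. Pairs of members with an adjusted p under 0.05 were 9 and 8 of 15, for levels and deviations, with library 1595 kept and 2 and 1 without 1575 and 1596, in place of 0; the cause was not tested. Whether the replicate numbers pair libraries is not known. Of same-numbered pairs 7 of 42 correlated above 0.1 (median 0.0047), against 25 of 197 others (median -0.0069). Numbers repeat within the nonescalating groups, so some same-numbered pairs would be wrong matches and these values cannot decide it. The block is given for its values only and called 0 members. Leaving out 1575 and 1596, and the averaged time comparison, were chosen after seeing the data. List counts without 1573 and 1574 were likewise added after seeing the data. Of the log2 fold changes of members, 56 of 684 changed sign under alternatives other than leaving out 1 library, and 77 of 2340 when 1 library was left out, none of them called.

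By limma voom, the log2 fold changes that changed sign were Fos 0.20 and Jund 0.35 in nonescalating against saline at 24 hours, Jund 0.18 in escalating against saline at 24 hours, Junb -0.094 in nonescalating against saline at 1 month, Fosl2 0.18 and Jun 0.067 in escalating against nonescalating at 1 month, Fos 0.64 and Jun 0.075 in time in saline, Junb -0.10 in time in nonescalating, Jun -0.38 and Jund -0.0083 in interaction nonescalating against saline, Junb 0.19 in interaction escalating against saline, Fos 0.19 and Jund 0.039 in time averaged over groups. Without libraries 1573 and 1574, the log2 fold changes that changed sign were Fos 0.092, Fosb -0.24 and Jun -0.16 in nonescalating against saline at 24 hours, Fosb 0.10 in interaction nonescalating against saline, Jun -0.076 in time averaged over groups. Without libraries 1573, 1574 and 1582, the log2 fold changes that changed sign were Fos 0.23, Fosb -0.11 and Jun -0.16 in nonescalating against saline at 24 hours, Fosl2 0.0090 in escalating against nonescalating at 24 hours, Fosl2 -0.13 in interaction escalating against nonescalating, Jun -0.078 in time averaged over groups. With the replicate block, the log2 fold changes that changed sign were Fos 0.056, Fosb -0.020, Fosl2 0.17 and Jund 0.50 in nonescalating against saline at 24 hours, Fosl2 0.093 and Jund 0.47 in escalating against saline at 24 hours, Fosb 0.036 in nonescalating against saline at 1 month, Fosl2 0.17 and Jun 0.25 in escalating against nonescalating at 1 month, Fos 0.15 and Fosl2 0.13 in time in saline, Fos -0.12 in interaction escalating against saline, Jund 0.054 in time averaged over groups. Without libraries 1575 and 1596, the log2 fold changes that changed sign were Fosl2 0.46 and Jund 0.72 in nonescalating against saline at 24 hours, Fosl2 0.27 and Jund 0.55 in escalating against saline at 24 hours, Fosl2 -0.10 in nonescalating against saline at 1 month, Fosl2 0.35 in escalating against nonescalating at 1 month, Fosl2 0.46 and Jund 0.28 in time in saline, Fosl2 -0.12 and Jund 0.050 in time in nonescalating, Fosl2 -0.58 and Jund -0.23 in interaction nonescalating against saline, Fosb -0.036, Fosl2 -0.030 and Jund -0.020 in interaction escalating against saline, Jund 0.20 in time averaged over groups. Without a filter, the log2 fold changes that changed sign were Fosb -0.025 in interaction escalating against saline. With library 1595 kept, the log2 fold changes that changed sign were Fosb -0.0072 in interaction escalating against saline. With 1 library left out at a time, the ranges that crossed 0 were Fos -0.71 to 0.41, Fosb -0.065 to 0.35, Fosl2 -0.64 to 0.46, Jund -0.30 to 0.72 in nonescalating against saline at 24 hours, Jun -1.03 to 0.069, Fosl2 -0.86 to 0.27, Jund -0.47 to 0.55 in escalating against saline at 24 hours, Fosb -0.33 to 0.12, Fosl2 -0.10 to 0.52 in nonescalating against saline at 1 month, Fos -1.09 to 0.059 in escalating against saline at 1 month, Fosl2 -0.22 to 0.35, Jun -0.25 to 0.12, Fos -0.48 to 0.79 in escalating against nonescalating at 1 month, Jun -0.71 to 0.42, Fos -0.68 to 0.26, Fosl2 -0.66 to 0.46, Jund -0.74 to 0.28 in time in saline, Junb -0.16 to 0.19, Jund -0.088 to 0.063, Fosl2 -0.12 to 0.54 in time in nonescalating, Fos -0.24 to 1.08 in time in escalating, Jun -0.53 to 0.60, Fosl2 -0.11 to 1.02, Jund -0.31 to 0.71, Fos -1.02 to 0.068, Fosb -0.52 to 0.016 in interaction nonescalating against saline, Fosb -0.25 to 0.30, Fosl2 -0.031 to 1.07, Jund -0.021 to 1.00, Junb -0.52 to 0.35 in interaction escalating against saline, Fosl2 -0.12 to 0.55 in interaction escalating against nonescalating, Fos -0.48 to 0.0044, Jun -0.048 to 0.33, Jund -0.17 to 0.17, Fosl2 -0.052 to 0.41 in time averaged over groups.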

Other observations

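Library 1595, labelled nonescalating at 1 month and left out for its 5168 counts, had 2 counts of Fosl2 and 0 counts of the other 6 members.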
